A study of Mus musculus with 22 samples.

Results

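Myelin is the multilayered membrane that oligodendrocytes wrap around axons, and 9 genes that code for its structural proteins were followed in the anterior cingulate cortex (ACC) of mice: Mbp, Mobp, Mag, Mog, Mal, Cnp, Cldn11, Opalin and Ermn. They were chosen by gene name as genes of compact or adaxonal myelin, and are 9 of the 37786 genes in the count table. All 9 had at least 10 counts in at least 10 mice and were among the 17524 genes tested, with 125 (Opalin) to 323884 (Mbp) counts per mouse. Their levels were lower on average in stimulated mice than in controls, but 2 of the 12 controls held most of that difference, and none of the 9 passed the test after adjustment for all genes.

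Oligodendrocytes make myelin in the brain, and its compact part is formed where neighbouring membrane layers are drawn together. Myelin basic protein, encoded by Mbp, joins the cytoplasmic faces of those layers and is required for compact myelin, and Mobp codes for a second small basic protein of compact myelin. Mal, a membrane protein that sorts lipid-rich membrane, and Cldn11, the claudin of the tight junctions that seal the lamellae, belong to the same sheath. Cnp codes for an enzyme that binds the cytoskeleton and keeps cytoplasmic channels through the sheath open. Mag lies in the innermost layer and binds the axon, whereas Mog is displayed on the outermost surface. Opalin is a glycoprotein of mature oligodendrocytes, and Ermn codes for ermin, an actin-binding protein of late oligodendrocytes. The Mbp gene also gives rise to golli transcripts, which are made in neurons as well, and counts per gene do not separate them.

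The ACC of 22 male wildtype C57BL/6J mice, 8 weeks old at the start, was sequenced as bulk tissue, 12 controls and 10 stimulated mice. Every mouse of both groups received the AAV5-CaMKIIa-ChR2-EYFP vector in the basolateral amygdala (BLA) on both sides and an optic fibre in the ACC, and was housed singly after implantation. The stimulated mice received 9 sessions of blue light of 20 min, on 3 consecutive days a week for 3 weeks, and the light stayed off in controls; tissue was taken 48 h after the last session. The CaMKIIa promoter places the light-gated channel in mainly excitatory neurons of the BLA, so that light in the ACC acts on their axons, and the oligodendrocytes of the ACC were not themselves the target. The comparison asks how repeated activation of the BLA to ACC pathway changes gene expression in the ACC. Library numbers in the labels fall into 2 runs, each of controls followed by stimulated mice: libraries 1 to 11 (controls 1 to 6, stimulated mice 1 to 4) and 12 to 23 (controls 7 to 12, stimulated mice 5 to 10). Between these runs 68.1% of all genes tested differed at an adjusted p under 0.05 (quasi-likelihood F-test of edgeR, adjusted by the method of Benjamini and Hochberg), so each comparison was repeated within each run. The study used 2 batches of animals, but the labels do not tie mice to them.

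In the GRCm38 assembly with the GENCODE M21 annotation, all 9 are protein-coding genes. Mbp lies on chr18:82475146-82585637 (plus strand), Mobp on chr9:120149707-120181484 (plus), Cnp on chr11:100574904-100591729 (plus) and Cldn11 on chr3:31149920-31164324 (plus). On the minus strand lie Mag (chr7:30899176-30914873), Mog (chr17:37010743-37023398), Mal (chr2:127633226-127656695), Opalin (chr19:41061710-41077113) and Ermn (chr2:58045113-58052864).

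The exons of 3 members overlap another gene. Cnp shares 154 of its 3639 exonic bases with Dnajc7 on the opposite strand, which reached 8638 counts in a mouse. Ermn shares 237 of 3635 bases with Galnt5 on the opposite strand (at most 9 counts), and Mobp 79 of 6849 bases with Gm38642 on the same strand (at most 59 counts). The strand setting of the counting is not given in the sources used here, so reads in those shared bases cannot be assigned to either gene.

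Promoter sequence is shown for 5 members, each with a match to at least 1 of the 2 sets of letters given below. Ermn, with a match at -234, is not printed, nor are Mal and Cldn11, which had no match to either set. Whether these letters bear on how the 9 genes varied across mice was not tested. RefSeq windows of the GRCm38.p6 build, from 250 bases before to 50 after a start site, were matched for 8 of the 9 genes. Letters bound by SOX factors such as SOX10 (ACAAAG or ACAATG) and by the myelin regulator MYRF (CTGGCAC or CTGGTAC) were searched on both strands of the whole window, and 0 matches overlapped another. SOX letters were found in 5 of the 8 windows (Mobp, Mag, Cnp, Opalin and Ermn) and in 28.6% of all 32851 windows of the same length. MYRF letters were found in 4 of the 8 (Mag, Mog, Cnp and Opalin) and in 7.10% of all windows. The 250 bases before the start site follow, 5′ to 3′ on the strand of the gene, with matches to either set in capitals.
Mobp, chr9:120149492-120149741, plus strand: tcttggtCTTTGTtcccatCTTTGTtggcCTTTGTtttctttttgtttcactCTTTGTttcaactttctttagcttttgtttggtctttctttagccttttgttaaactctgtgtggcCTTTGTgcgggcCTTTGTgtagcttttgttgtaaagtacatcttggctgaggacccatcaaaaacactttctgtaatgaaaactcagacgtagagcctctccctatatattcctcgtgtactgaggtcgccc
Mag, chr7:30914864-30915113, minus strand: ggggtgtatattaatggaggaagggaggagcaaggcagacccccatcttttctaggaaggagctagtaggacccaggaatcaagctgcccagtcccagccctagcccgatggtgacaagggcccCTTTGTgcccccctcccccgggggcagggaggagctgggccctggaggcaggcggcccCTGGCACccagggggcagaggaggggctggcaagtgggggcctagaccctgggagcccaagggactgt
Mog, chr17:37023399-37023648, minus strand: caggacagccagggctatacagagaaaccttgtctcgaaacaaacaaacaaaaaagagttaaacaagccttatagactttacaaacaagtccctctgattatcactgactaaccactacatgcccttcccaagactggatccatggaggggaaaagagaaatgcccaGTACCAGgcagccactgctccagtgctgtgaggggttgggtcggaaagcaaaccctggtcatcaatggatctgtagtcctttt
Cnp, chr11:100574689-100574938, plus strand: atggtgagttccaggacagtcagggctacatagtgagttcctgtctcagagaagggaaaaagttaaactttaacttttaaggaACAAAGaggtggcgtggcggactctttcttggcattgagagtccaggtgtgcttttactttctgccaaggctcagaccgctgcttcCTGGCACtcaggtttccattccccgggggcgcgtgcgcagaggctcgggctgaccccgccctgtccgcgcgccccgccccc
Opalin, chr19:41077114-41077363, minus strand: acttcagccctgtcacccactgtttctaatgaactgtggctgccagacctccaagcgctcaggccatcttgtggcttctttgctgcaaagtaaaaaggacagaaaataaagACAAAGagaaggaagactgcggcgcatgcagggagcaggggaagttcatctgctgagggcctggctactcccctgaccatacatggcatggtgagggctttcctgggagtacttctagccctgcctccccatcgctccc
Mobp held 6 copies of CTTTGT, the reverse complement of ACAAAG, at positions from -243 to -120. Mag, Cnp and Opalin held letters of both sets, although the MYRF match of Opalin and one of its 2 SOX matches lie after the start site and are not in the printed run. The capitals of Mog are a MYRF match on the opposite strand at -83. The letters TATAAA were in 0 of the 8 windows and in 13.6% of all windows, the GC box GGGCGG in 2 of 8 (Cnp and Cldn11) and in 35.7%, and the E-box CANNTG in 3 of 8 and in 72.3%. A match is a description of letters and was not tested as a binding site.

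Controls 9 and 11, both in libraries 12 to 23, were the 2 highest mice in every one of the 9 genes. Dixon's test, which looks for a single outlying mouse by its gap to the nearest other one, was run on the 9 genes in 45 groups of 4 to 10 mice and found 0, and in the controls of libraries 12 to 23 these 2 mice are each other's nearest on the log2 scale used for that test. The 9 genes took 1.55% of all counts in control 9 and 1.14% in control 11, against 0.165% to 0.544% in the other 20 mice. Relative to the median of the other 10 mice of libraries 12 to 23, control 9 was between 4.38-fold (Cnp) and 6.28-fold (Mog) higher, and control 11 between 2.73-fold (Cnp) and 4.05-fold (Mog). In bulk tissue, fewer or more oligodendrocytes and less or more RNA per oligodendrocyte cannot be told apart. The summed level of excitatory neuron markers was 4805 CPM (counts per 1000000 counts, with library sizes scaled by TMM) in control 9. That was 0.707-fold the median of the other 10 mice of libraries 12 to 23, and control 11 was at 0.991-fold. Inhibitory neuron markers were at 1.18-fold in control 9 and 0.991-fold in control 11, so the 2 neuron lists went in opposite directions in control 9. In the same mouse microglia markers were at 0.758-fold, and mural and fibroblast markers at 1.23-fold. The summed level of astrocyte markers in controls 9 and 11 was 0.921-fold and 1.29-fold that of the same 10 mice at their median, and that of choroid plexus and ependymal markers 2.25-fold and 1.71-fold. The part of tissue composition in the 2 high libraries was not tested, and the group results below are given with and without them.

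Per kilobase of merged exons, Mbp had the highest level of the 9 genes, with a median over all 22 mice of 258 CPM per kb. Mobp (90.0), Cnp (67.6), Mal (28.9), Mog (21.9) and Mag (21.0 CPM per kb) followed, and Ermn (8.46), Opalin (5.59) and Cldn11 (5.39 CPM per kb) were lowest. Mbp exceeded Mobp in 22 of 22 mice, by 1.57 ± 0.15 on the log2 scale (SD, n = 22). Cnp exceeded Mal, Mal exceeded Mog, Mag exceeded Ermn and Ermn exceeded Opalin in 22 of 22 mice each. Mobp was above Cnp in 17 of 22 mice, and the log2 difference of 0.42 ± 0.40 (SD) was about the size of its own spread with this length. Mog and Mag, one on the outer and one on the inner face of the sheath, were not separable in level with this length (Mog higher in 10 of 22 mice, log2 difference -0.033 ± 0.21), nor were Opalin and Cldn11 (Opalin higher in 10 of 22). With the length of the longest transcript in place of merged exons, Mobp was above Cnp in 22 of 22 mice, by 1.15 ± 0.40 on the log2 scale, so the separation of these 2 genes depends on the length used. Mag moved ahead of Mal (35.2 against 28.9 CPM per kb, in 21 of 22 mice) and of Mog (21.9 CPM per kb), because Mag has 2434 bases in its longest transcript and 4072 in its merged exons.

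**Figure D1:**
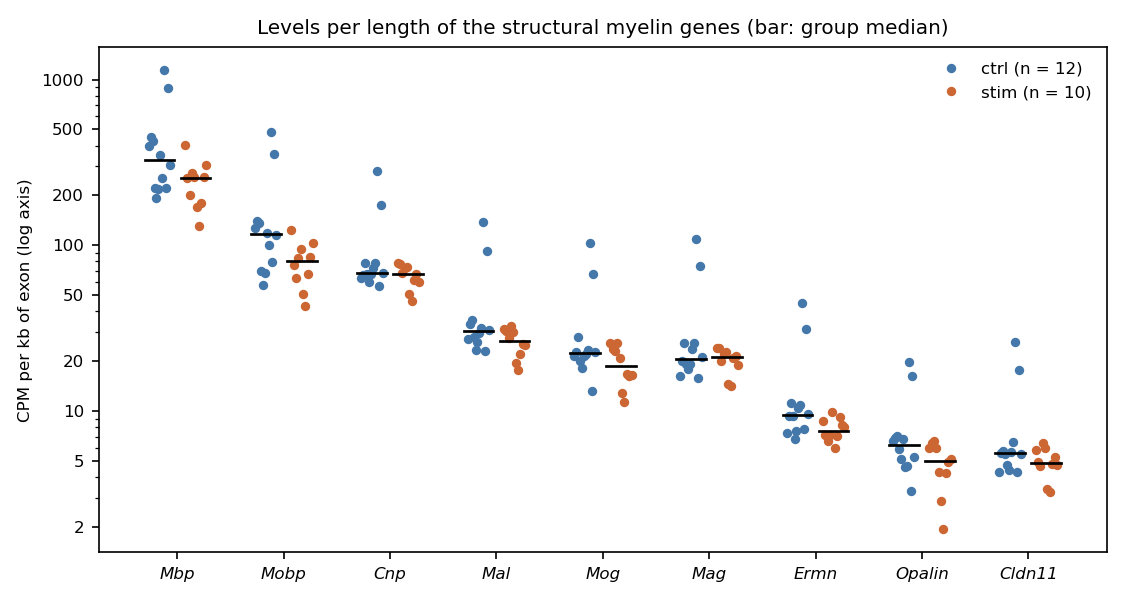
Level of each gene per kilobase of merged exons in every mouse (CPM per kb, log axis), with controls in blue, stimulated mice in orange and a bar at each group median. Mbp lies highest (median of all mice 258) and Cldn11 lowest (5.39), and the 2 highest points of every gene are controls 9 and 11.

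Among the genes of compact myelin, Mbp ranged from 1637 to 9679 CPM in controls (median 2774, n = 12) and from 1109 to 3426 CPM in stimulated mice (median 2172, n = 10). Mobp ranged from 397 to 3287 CPM in controls (median 802) and from 296 to 848 CPM in stimulated mice (median 551). For both genes 9 of the 10 stimulated mice were below the control median, and the groups overlapped. Mal was at 64.4 to 386 CPM in controls (median 84.1) and 49.4 to 90.4 CPM in stimulated mice (median 73.4). Cldn11 was at 7.97 to 48.7 CPM in controls (median 10.4) and 6.05 to 12.0 CPM in stimulated mice (median 9.07). For each of these 2 genes 7 of 10 stimulated mice lay below the control median. The log2 fold change, stimulated against control, was -0.96 for Mobp (SE 0.32, unadjusted p = 0.00649), -0.79 for Mbp (SE 0.29, p = 0.0109), -0.73 for Mal (SE 0.28, p = 0.0161) and -0.69 for Cldn11 (SE 0.29, p = 0.0271) by edgeR's quasi-likelihood test. As folds, stimulated mice had 0.514 of the control level of Mobp and 0.578 of that of Mbp.

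Of the genes of the adaxonal and outer surfaces and of the cytoplasmic channels, Mag was at 64.6 to 443 CPM in controls (median 84.0) and 57.8 to 98.2 CPM in stimulated mice (median 86.1). Its median was thus slightly higher in stimulated mice, and only 4 of 10 lay below the control median, although the fitted log2 fold change, which follows the group means, was -0.68 (SE 0.30, unadjusted p = 0.0352). Cnp was at 206 to 1021 CPM in controls (median 246) and 168 to 284 CPM in stimulated mice (median 246), with a log2 fold change of -0.53 (SE 0.24, p = 0.0408). Mog was at 22.6 to 177 CPM in controls (median 38.3) and 19.4 to 44.1 CPM in stimulated mice (median 31.9), with a log2 fold change of -0.73 (SE 0.30, p = 0.0212). Mog was thus lower in the median as well as in the fit, whereas the medians of Cnp were nearly equal.

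Of the proteins of mature oligodendrocytes, Opalin was at 9.66 to 58.3 CPM in controls (median 18.4) and 5.69 to 19.3 CPM in stimulated mice (median 14.8). Ermn was at 24.5 to 163 CPM in controls (median 34.6) and 21.9 to 35.95 CPM in stimulated mice (median 27.6). Opalin was below the control median in 8 of 10 stimulated mice and Ermn in 9 of 10, and the log2 fold changes were -0.67 (SE 0.28, unadjusted p = 0.0232) and -0.83 (SE 0.29, p = 0.00892). All 9 genes thus had a negative log2 fold change with an unadjusted p under 0.05, where 2.61% of all genes tested did. The adjusted p was 0.9997 for each of the 9 and was under 0.05 for 0 of the 17524 genes by this test, with 632 genes at an unadjusted p under 0.05. The DESeq2 Wald test had 3 genes at an adjusted p under 0.05, and 0 of them were members. The median log2 fold change was -0.73 over the 9 genes and 0.0085 over all genes.

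**Figure D2:**
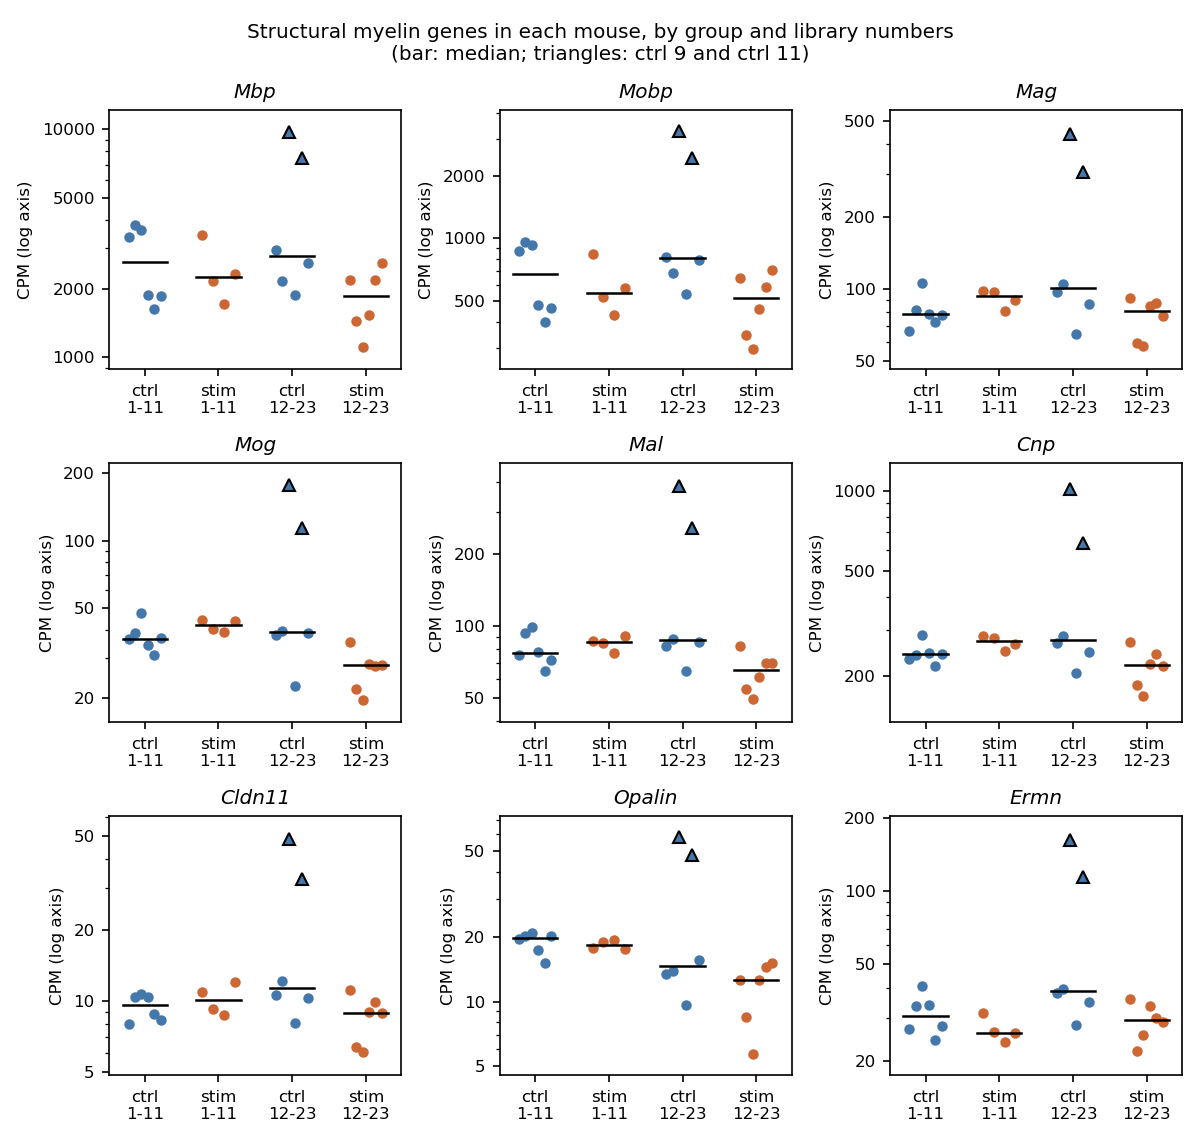
Level of each gene in every mouse (CPM, log axis), separated by group and by library numbers 1 to 11 and 12 to 23, with a bar at each median and triangles for controls 9 and 11. In each panel the 2 triangles lie above all other mice, as for Mbp, where they are at 9679 and 7489 CPM and the next mouse is at 3795 CPM.

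Without controls 9 and 11 all 9 genes still had a negative log2 fold change, but its size ranged only from -0.03 (Mag) to -0.36 (Mobp), with a median of -0.15. None of the 9 then reached an unadjusted p under 0.05 (edgeR), where 2.04% of all genes were lower at that level. The values were -0.32 for Mbp (95% confidence interval -0.71 to 0.07), -0.22 for Ermn (-0.45 to 0.01), -0.22 for Opalin (-0.60 to 0.16), -0.15 for Mog and for Mal, -0.09 for Cldn11 and -0.06 for Cnp (-0.26 to 0.15). With control 9 alone left out 3 of the 9 genes had an unadjusted p under 0.05, where 2.39% of all genes were lower at that level. With control 11 alone left out 4 of the 9 did, where 351 of all 17524 genes were lower at that level. Leaving out any other mouse kept between 7 and 9, where 1.93% to 3.54% of all genes were lower at that level.

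The 2 runs of library numbers differed in the comparison. Within libraries 1 to 11 (6 controls, 4 stimulated mice) 4 of the 9 genes were lower in stimulated mice and 5 were higher, with log2 fold changes from -0.20 (Ermn) to 0.20 (Mag) and 0 at an unadjusted p under 0.05, where 3.34% of all genes were lower at that level. The 4 stimulated mice had Mbp at 3426, 2162, 1715 and 2324 CPM, inside the range of their controls (1637 to 3795 CPM). They had Mag at 98.2, 97.2, 81.1 and 89.6 CPM, each above the control median of 78.3 CPM. Cnp and Mog were likewise above the control median of that run in 4 of 4 stimulated mice, and Opalin was below it in 4 of 4.

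Within libraries 12 to 23 (6 controls, 6 stimulated mice) all 9 genes were lower with stimulation, with log2 fold changes from -1.06 (Cnp) to -1.53 (Mobp), and all 9 had an unadjusted p under 0.05, where 8.30% of all genes were lower at that level. The smallest adjusted p among the 9 was 0.263 (edgeR, adjusted over all genes). Stimulated mice were below the control median in 6 of 6 for every gene except Opalin, with 5 of 6. Mobp was at 544 to 3287 CPM in these controls (median 802) and at 296 to 705 CPM in the stimulated mice (median 522). Without controls 9 and 11 this run still had all 9 genes lower, from -0.22 (Opalin) to -0.51 (Mobp), and 4 of them (Mobp, Mog, Mal and Ermn) had an unadjusted p under 0.05, where 3.60% of all genes were lower at that level. The 4 remaining controls had Mobp at a mean of 708 ± 124 CPM (SD), against 506 ± 166 CPM in the 6 stimulated mice. This alternative was added after seeing the data.

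The difference of the group effect between the runs was tested as an interaction. The group effect was more negative in libraries 12 to 23 for all 9 genes, by -1.03 (Ermn) to -1.58 (Mog) on the log2 scale, and all 9 had an unadjusted p under 0.05 for the interaction, where 3.23% of all genes did in that direction. The adjusted p was 0.550 to 0.607 (edgeR, adjusted over all genes). By the DESeq2 Wald test 8 of the 9 had an unadjusted p under 0.05 for the interaction, where 682 of all 17524 genes did in that direction, and Mbp had p = 0.0568. Without controls 9 and 11 the interaction ranged from -0.09 to -0.57 and 4 of the 9 genes (Mag, Mog, Mal and Cnp) had an unadjusted p under 0.05, where 2.11% of all genes did, and the adjusted p was 0.9998 for each. With the run as a covariate for all 22 mice, the log2 fold changes were -0.50 (Cnp) to -0.90 (Mobp), with an unadjusted p under 0.05 for 9 of 9 genes, where 5.45% of all genes were lower at that level, and adjusted p-values from 0.329 to 0.415. The same fit left, when controls 9 and 11 were dropped, 1 of the 9 at an unadjusted p under 0.05, where 4.45% of all genes were lower at that level.

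**Figure D3:**
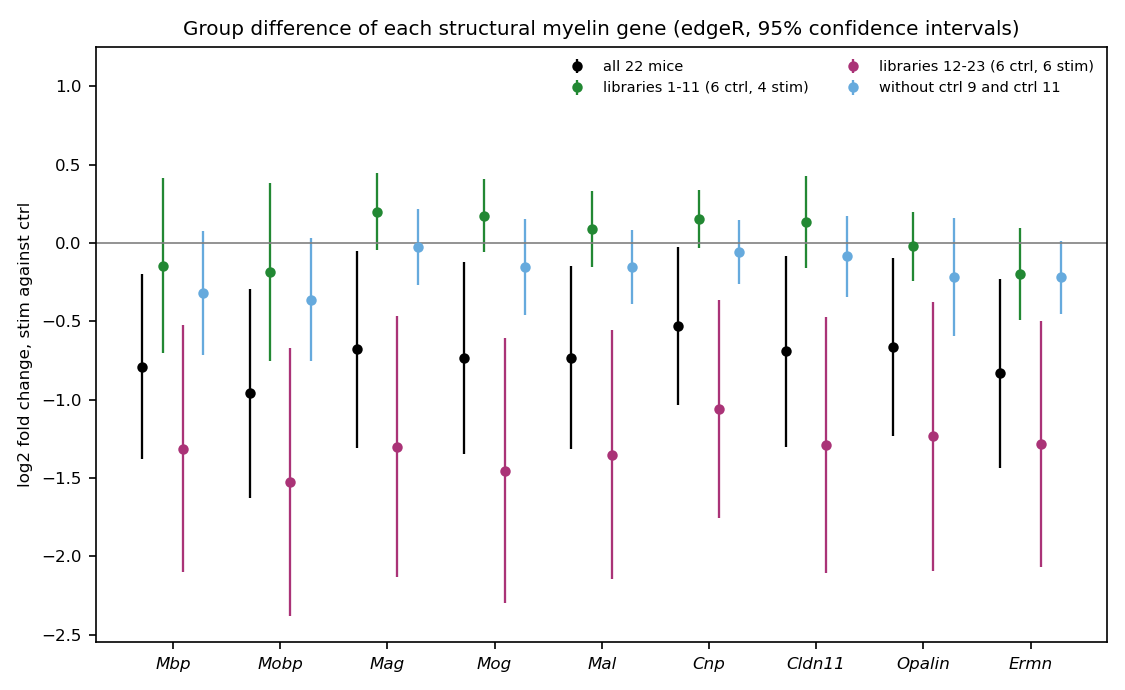
Log2 fold change of each gene, stimulated against control, with 95% confidence intervals, in all 22 mice, in libraries 1 to 11, in libraries 12 to 23 and without controls 9 and 11. The intervals of all mice and of libraries 12 to 23 lie below 0 for all 9 genes, and those of libraries 1 to 11 and of the fit without controls 9 and 11 cross 0 for all 9.

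Between the runs themselves, with group in the fit, only Ermn among the 9 genes passed an adjusted p of 0.05: its log2 level was 0.69 higher in libraries 12 to 23 (SE 0.25, adjusted p = 0.0169, edgeR), where 68.1% of all genes passed in either direction. The other members differed by -0.03 (Opalin) to 0.53 (Mag), each with an adjusted p above 0.05. Opalin and Ermn, both genes of mature oligodendrocytes, thus lay at the 2 ends of the run difference. They did so without controls 9 and 11 as well, but there the calls changed: Opalin was lower in libraries 12 to 23 (log2 difference -0.57, SE 0.13, adjusted p = 0.000457), Mog had -0.35 (SE 0.12, adjusted p = 0.0121) and Ermn 0.17 (SE 0.10, adjusted p = 0.137) by edgeR. These 2 of the 9, Opalin and Mog, passed an adjusted p of 0.05 in that fit, where 67.1% of all genes did. Opalin was at 15.1 to 20.8 CPM in the controls of libraries 1 to 11 and at 9.66 to 15.5 CPM in controls 7, 8, 10 and 12.

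The 9 genes varied together across mice. Pearson's r of log2 CPM over 22 mice had a median of 0.909 over the 36 pairs and was lowest for Opalin and Ermn (0.774). With values centred within each run, controls 9 and 11 included, the median was 0.949 and the lowest pair was Mbp and Mag (0.869). These are correlations between genes measured in the same libraries, given as a description. Without these 2 mice the median was 0.693, the lowest value was 0.245 (Opalin and Ermn) and the highest was 0.969 (Mbp and Mobp). Within libraries 1 to 11 (n = 10) the median was 0.558, with Cldn11 and Opalin at -0.099 and Mbp and Mobp at 0.998. Within libraries 12 to 23 without controls 9 and 11 (n = 10) the median was 0.873 and the lowest value 0.656 (Mbp and Ermn). Among the remaining mice the genes thus varied together more closely in that run than in libraries 1 to 11.

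Outside the 9, the genes whose log2 CPM followed the mean of the members most closely over 22 mice were Trf, the iron carrier transferrin (r = 0.976), Gjb1, a gap junction protein of myelinating cells (0.969), Aspa, which breaks down N-acetylaspartate (0.962), and Litaf (0.952). S1pr5 (0.939), Hapln2, a matrix link protein of nodes of Ranvier (0.937), Tnfaip6 (0.937) and Gal3st1, the enzyme that makes sulfatide (0.931), came next. Of the 10 closest genes, 2 are not reported here. The order changed without controls 9 and 11. Trf stayed at 0.947 and Litaf at 0.883, whereas S1pr5 was at 0.712 and Gal3st1 at 0.706. In libraries 1 to 11 alone Trf was at 0.944, and S1pr5 was at 0.086.

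Mbp and Mobp moved as a pair apart from the other 7 genes, a pattern chosen after the values were seen and given with no test. The mRNAs of both genes are known to be carried into the oligodendrocyte's processes and translated there. The mean log2 CPM of the pair minus that of the other 7 genes was 5.40, 5.35 and 5.09 in controls 1 to 3 and 5.13 in stimulated mouse 1. In the other 6 mice of libraries 1 to 11 it was between 4.34 and 4.62, so that the mice of this run fell into 2 sets that crossed the groups. In counts, Mbp had 14.5, 15.7 and 12.6 reads for each read of Cnp in controls 1 to 3 and 12.1 in stimulated mouse 1, against 6.91 to 8.75 in the other 6.

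The mitochondrial share of counts was 1.04% to 4.81% in controls and 0.982% to 2.80% in stimulated mice. The same 4 mice had the highest shares of counts on mitochondrially encoded genes of that run, at 4.41%, 4.81%, 3.04% and 2.80%, against 1.63% to 2.36% in the other 6. In libraries 12 to 23 the difference of the pair from the other 7 genes was 4.44 to 5.12 with mitochondrial shares of 0.982% to 1.90%. Over these 12 mice Pearson's r was 0.835 and Spearman's rho 0.832 (r = 0.790 without the 2 mice farthest from the median share). The part of the mitochondrial share, or of what moves with it, in the level of Mbp and Mobp was not tested. Controls 9 and 11, at 4.79 and 4.93, lay inside the range of the other mice, so that their high levels were shared by the pair and the other 7 genes. The difference averaged 4.87 (SD 0.34, n = 12) without and 4.68 (SD 0.27, n = 10) with stimulation, a gap less than the SD of either group. In libraries 12 to 23 the averages were 4.89 (SD 0.16, n = 6) and 4.70 (SD 0.25, n = 6), a gap above the SD of the controls and below that of the stimulated mice. With the mitochondrial share as a covariate, added after seeing the data, all 9 genes kept a negative log2 fold change, from -0.58 to -0.98, with an unadjusted p under 0.05 for each, where 2.81% of all genes were lower at that level, and an adjusted p of 0.854 (edgeR). That fit gave, when controls 9 and 11 were left out, -0.02 to -0.24 and 0 of the 9 at an unadjusted p under 0.05, where 1.34% of all genes were lower at that level.

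**Figure D4:**
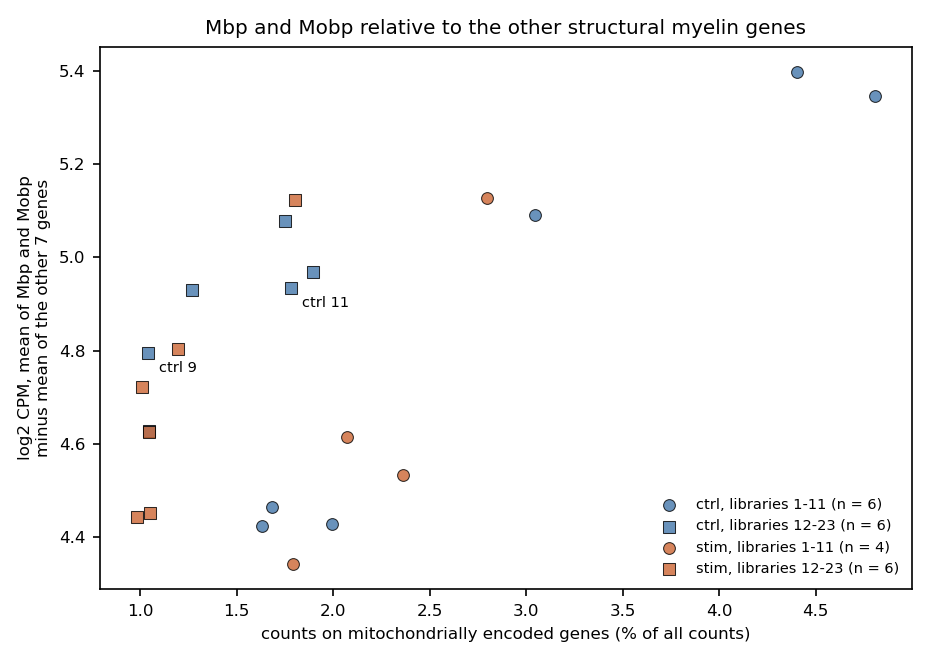
Mean log2 CPM of Mbp and Mobp minus that of the other 7 genes (vertical axis) against the share of counts on mitochondrially encoded genes in percent (horizontal axis), each point a mouse, with circles for libraries 1 to 11 and squares for 12 to 23. Controls 1 to 3 and stimulated mouse 1 lie above 5 with shares of 2.80% or more, and the other 6 mice of libraries 1 to 11 lie at 4.34 to 4.62.

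Other genes of oligodendrocytes are given as lists, drawn up from common knowledge of cell types, by their counts and medians beside the median over all genes of 0.0085 and the 2.61% of all genes lower at an unadjusted p under 0.05. Of 10 enzymes of myelin lipids, 10 were lower in stimulated mice, 5 of them at an unadjusted p under 0.05, with a median log2 fold change of -0.35. Ugt8a, which makes galactosylceramide, averaged 40.0 CPM (SD 34.8, n = 12) without and 21.5 CPM (SD 4.94, n = 10) with stimulation, and its log2 fold change was -0.89 (SE 0.31, adjusted p = 0.9997, edgeR). Aspa had -0.57 (SE 0.24) and Degs1, a desaturase of ceramide synthesis used by all cells, -0.06 (SE 0.10). Of 12 transcription factors of the lineage 12 were lower, 3 of them at an unadjusted p under 0.05 (median -0.28), from St18 (-0.95, SE 0.35) and Nkx6-2 (-0.68, SE 0.29) to Sox8 (-0.04, SE 0.18). Of 37 other oligodendrocyte genes 35 were lower, 15 of them at an unadjusted p under 0.05 (median -0.51), with Tmem88b at -0.89 (SE 0.33), Bcas1, a gene of newly myelinating cells, at -0.82 (SE 0.31) and Aatk at -0.02 (SE 0.31).

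Of 12 genes of progenitors and newly formed oligodendrocytes 9 were lower, with a median of -0.05. The only gene of that list with an unadjusted p under 0.05 was Enpp6, a choline phosphodiesterase of newly formed oligodendrocytes (-0.85, SE 0.29, p = 0.00795, adjusted p = 0.9997, edgeR). Lhfpl3 was at -0.09 (SE 0.10), and Pdgfra, the growth factor receptor that marks progenitors, at -0.01 (SE 0.32). Within libraries 1 to 11 the lists did not share one direction. Of the lipid enzymes 6 of 10 were lower (median -0.03), of the transcription factors 5 of 12 (median 0.02), of the other oligodendrocyte genes 16 of 37 (median 0.04) and of the progenitor list 7 of 12 (median -0.05), with 0 lower at an unadjusted p under 0.05 (edgeR), where 3.34% of all genes were. Sox8 (0.34, SE 0.10) and Sox10 (0.27, SE 0.09) were higher at that level, as were 388 of all genes, and are named after their values were seen. Within libraries 12 to 23, 9 of 10 lipid enzymes, 12 of 12 transcription factors, 36 of 37 other oligodendrocyte genes and 11 of 12 of the progenitor list were lower, with 8, 9, 28 and 5 of them at an unadjusted p under 0.05, where 8.30% of all genes were lower at that level. In that run without controls 9 and 11 the numbers at an unadjusted p under 0.05 were 2, 0, 4 and 2, where 3.60% of all genes were lower at that level.

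Without controls 9 and 11, 0 genes of these 4 lists had an unadjusted p under 0.05 (edgeR), where 2.04% of all genes were lower at that level, and the medians were -0.09 for the lipid enzymes, -0.01 for the transcription factors, -0.10 for the other oligodendrocyte genes and 0.04 for the progenitor list. In control 9 the summed level was 2.10-fold the median of the other 10 mice of libraries 12 to 23 for the lipid enzymes and for the transcription factors, 1.98-fold for the other oligodendrocyte genes and 1.12-fold for the progenitor list, compared with 4.61-fold for the 9 structural genes. In control 11 the values were 1.70-fold, 1.75-fold, 1.66-fold and 1.18-fold, compared with 3.45-fold. These are ratios of sums, which follow the most abundant genes of each list. Within libraries 12 to 23 the log2 fold changes of the 9 members were -1.06 to -1.53. The genes named above for the smallest p of each list had -1.33 (Ugt8a), -1.31 (St18), -1.40 (Tmem88b) and -1.34 (Enpp6) there. Those named for the highest p had 0.0013 (Degs1), -0.36 (Sox8), -0.20 (Aatk) and -0.20 (Pdgfra). With the mean level of the other oligodendrocyte genes as a covariate, the log2 fold changes of the 9 structural genes were between -0.19 and 0.09 (between -0.15 and 0.07 without controls 9 and 11), 6 of them negative, and 0 had an unadjusted p under 0.05, where 1.54% of all genes were lower at that level (1.47% without the 2 controls).

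Markers of 6 other cell types had 0 genes at an unadjusted p under 0.05 in the fit with group alone. Of the 4 tested markers of choroid plexus and ependymal cells 1 was lower at that level, Ttr, the transthyretin of the choroid plexus (log2 fold change -1.86, SE 0.59, adjusted p = 0.9997, edgeR), and it was at -1.92 (SE 0.63) without controls 9 and 11. Of 9 astrocyte markers 9 had a negative log2 fold change (median -0.11), with summed levels of 3866 to 7838 CPM in controls and 3633 to 6912 CPM in stimulated mice. Of 6 excitatory neuron markers 6 had a positive one (median 0.12), with sums of 3160 to 6865 CPM in controls and 3133 to 7794 CPM in stimulated mice. Of 10 microglia markers 2 were lower (median 0.06), of 8 endothelial markers 5 (median -0.07), of 7 mural and fibroblast markers 4 (median -0.01) and of 6 inhibitory neuron markers 2 (median 0.09) by edgeR. With the mitochondrial share as a covariate 5 of the 10 microglia markers were higher at an unadjusted p under 0.05, where 358 of all 17524 genes were higher at that level. With the run as well 6 of the 10 were, where 1163 of all genes were. Among the other fits of stimulated against control, those without a single mouse not included, each of those 6 lists had at most 2 such genes, as for 2 of the 6 excitatory neuron markers with limma. Their part in the levels of the structural myelin genes was not tested.

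**Figure D5:**
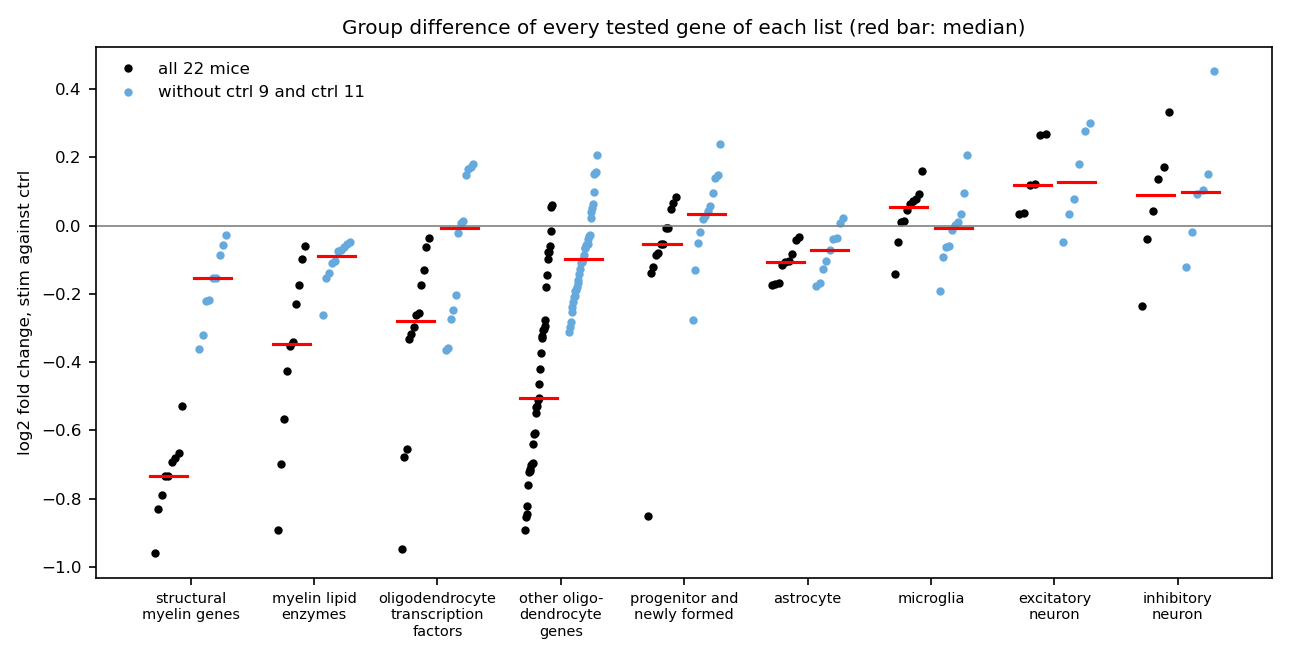
Log2 fold change, stimulated against control, of every tested gene of 9 lists (each point a gene, red bar at the median), in all 22 mice (black) and without controls 9 and 11 (blue). The median of the structural myelin genes is -0.73 in all mice and -0.15 without the 2 controls, and that of the excitatory neuron markers is 0.12 and 0.13.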

How the data were processed

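The deposited table holds raw read counts per gene and the same counts divided by DESeq2 size factors (unit signal, used here only to check the size factors). Per the labels and methods, the authors made libraries from 5 ng of total RNA with the SMARTSeq v4 kit and 10 PCR cycles, sequenced them single-end, and used cutadapt 1.10 for trimming and STAR 2.5.3a for alignment to mm10, and counted uniquely aligned reads with HTSeq 0.6.1p1 and tested them with DESeq2 1.22.1, with covariates for RNA integrity and batch. The latter are not in the labels and were not used here, nor were the columns of the authors' own comparison. Totals ran from 23090483 to 43668462 counts per mouse, and the lowest count of a member was 125 (Opalin). Each sample is labelled as a replicate, the study's methods describe separate animals, and no 2 libraries agreed within sampling noise.

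The counts were fitted with edgeR 4.0.16 in R 4.3.3 (TMM, quasi-likelihood test, group as the only term, two-sided) over 17524 genes, those reaching 10 counts in 10 or more mice, and p-values were adjusted over all of them by the method of Benjamini and Hochberg. Log2 CPM used a prior count of 2. A standard error is the ratio of the log2 fold change to the root of its F statistic. The fit was also run on simulated counts, with the outcome not given here. Also tried were limma 3.58.1 (voom, quality weights), the Wald test of DESeq2 1.42.0, its size factors within edgeR, other count minimums, the run of library numbers, a replicate block, a score of other oligodendrocyte genes, and leaving out mice. Members, lists and tests were chosen with earlier results of these data known. Besides the 9 members, the genes named are the 2 with the smallest and the 1 with the highest p of each oligodendrocyte list, and the 10 most correlated with the mean of the members; 2 of these are not reported here. The fits with the mitochondrial share, those joining another choice with the loss of controls 9 and 11, and the contrast of Mbp and Mobp with the other 7 genes were added after seeing the data. Promoter windows came from RefSeq (GRCm38.p6). Gene lengths and coordinates came from GENCODE M21.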

Additional observations from a re-analysis of the deposited data

How the results depend on the processing

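The 9 genes were lower in stimulated mice in every fit except 3: within libraries 1 to 11, 4 were lower, with a median log2 fold change of 0.087 (Mag 0.20, Mog 0.17, Cnp 0.15, Cldn11 0.13 and Mal 0.087), and with the score of other oligodendrocyte genes the median was -0.038 (Mag 0.090, Cnp 0.036, Cldn11 0.016), or -0.053 without controls 9 and 11 as well (Mag 0.068, Cnp 0.014, Cldn11 0.0018). The median was -0.076 with the mitochondrial share and without controls 9 and 11. None had an adjusted p under 0.05 in any fit. Leaving out each mouse in turn gave medians from -0.79 to -0.42 and 9 of 9 lower each time, with 3 to 9 genes at an unadjusted p under 0.05; the fewest were 3 without control 9 and 4 without control 11. The number at an unadjusted p under 0.05, 9 in the edgeR fit, was 0 without controls 9 and 11, 0 with the score, 0 in libraries 1 to 11, 4 in libraries 12 to 23 without those controls, and 1 with the run as a covariate and without them. The DESeq2 Wald test gave 6, where 508 of all genes were lower at that level: it replaced the counts of control 9 as outliers for Mag (14831 by 2873), Mal (12903 by 2653) and Cldn11 (1628 by 327), and their log2 fold changes were then -0.31, -0.39 and -0.34. With limma voom it was 7, without Mag (p = 0.0771) and Cldn11 (p = 0.0527), where 980 of all genes were lower at that level. For the interaction the number was 9, 8 with DESeq2 and 4 without controls 9 and 11.

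Same-numbered mice had a mean correlation of deviations of 0.308 (from -0.367 to 0.635), against -0.027 for other mice of the 2 groups. Of the 10 same-numbered pairs 8 lie in the same run, where mice with other numbers averaged 0.416, so the numbers were not taken to pair the mice. With the replicate block over replicates 1 to 10 the log2 fold changes were -0.23 to -0.55 and 3 of the 9 genes (Mbp, Mobp and Opalin) had an unadjusted p under 0.05, where 641 of all 17524 genes were lower at that level, and 1291 of all genes had such a p in either direction.

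Over all genes, the count of calls at an adjusted p of 0.05 was 0. It was 3 by the DESeq2 Wald test, 1 with the run as a covariate and without controls 9 and 11, and 0 to 1 when a mouse was left out. The number with an unadjusted p under 0.05 was 632, from 471 to 910 when a mouse was left out. It was 1860 with limma voom, 2371 with every gene with a count, 2016 with the run as a covariate, 388 with the score, 974 in libraries 1 to 11, 2165 in libraries 12 to 23, 1355 with the run and without controls 9 and 11, 404 with the mitochondrial share and 370 with the score without these controls, and 1863 with the run and the mitochondrial share. The cause was not tested. Without controls 9 and 11 the median correlation of the 36 pairs was 0.693 and the lowest 0.245, and a prior count of 0.5 left both within 0.001.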

Other observations

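Genes listed for the myelin of peripheral nerves, which Schwann cells make, were counted as well, and 3 of 4 listed genes were tested. The 4 had summed levels of 2.71 to 25.7 CPM in controls and 6.94 to 36.7 CPM in stimulated mice. In bulk tissue these counts do not show which cells held the transcripts, and they are not read as a signal of Schwann cells. All 3 had a positive log2 fold change (Egr2 0.33, Ncmap 0.38 and Prx 0.32), with 0 at an unadjusted p under 0.05 by edgeR. Within libraries 1 to 11, 1 of the 3 was higher at that level, where 388 of all 17524 genes were. With the run as a covariate and without controls 9 and 11, 1 was as well, where 576 of all genes were. Of 4 tested markers of choroid plexus and ependymal cells 3 were lower (median -0.45), and Ttr had an unadjusted p of 0.00442 (0.00592 without controls 9 and 11, edgeR). Its log2 fold change was -2.30 (SE 0.37, unadjusted p = 1.26e-05, adjusted p = 0.22) within libraries 12 to 23. Within libraries 1 to 11, where 1 control had a summed level of the list of 134.8 CPM, it was at -1.45 (SE 0.96, unadjusted p = 0.153). Foxj1, a transcription factor of ciliated cells, was at -0.82 (SE 0.41) in all mice and -0.11 (SE 0.28) without controls 9 and 11, and the median of the list was then -0.04.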
